A study of Homo sapiens with 8 samples.

Results

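Nuclear receptors are transcription factors that, in most cases, change activity when a small lipid-soluble molecule such as a steroid, a retinoid, thyroid hormone or an oxysterol binds them. They were followed here as 46 listed genes of the family in SKBR3, a breast cancer line of human origin with amplified ERBB2 (HER2), with and without knockdown of FOXA1. A gene was taken as a member when the symbol column of the deposited table equalled its listed symbol, which found 41 of the 46 among 30434 genes. RXRG, NR1H4, NR2E1, NR5A1 and NR0B1 matched no row. Of the 41, 31 passed a filter on low counts and were tested, among 16430 tested genes in all.

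The series has 4 libraries from control SKBR3 cells, labelled WT, and 4 from cells of a FOXA1 knockdown derivative. For the knockdown, the series' text describes commercial lentiviruses carrying 3 individual short hairpin RNAs against FOXA1 and a stable line made with them. Both groups grew in DMEM with 10% fetal bovine serum, so both were exposed to whatever hormones and retinoids the serum held. The labels do not say whether the controls carried a control vector, whether the hairpins were pooled, or whether the replicates were separate cultures, so the p-values measure the spread between these libraries, which may be technical.

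FOXA1 is a pioneer factor that opens chromatin for other transcription factors, including several nuclear receptors. FOXA1 itself stood at 191, 192, 193 and 189 counts per 1000000 (CPM) in control replicates 1 to 4 and at 3.78, 3.56, 4.23 and 4.26 CPM in knockdown replicates 1 to 4, or 2.06% of the control mean, which matches the labels. Library totals ran from 19087878 to 23786684 counts, and 3 counts, taken as the floor of detection, were worth 0.123 to 0.153 CPM. Among the controls, replicate 3 was the least like the others: its pairs had a chi-square per degree of freedom of 4.92 to 6.3, and pairs without it 2.2 to 2.4. The 5 luminal epithelial markers (KRT8, KRT18, KRT19, EPCAM and ERBB2) were all present and summed to 16192 to 18063 CPM in control and 10862 to 11732 CPM in knockdown; ERBB2 and KRT19 fell, while KRT8, KRT18 and EPCAM rose. Of 4 fibroblast markers in the table, COL1A2, PDGFRA and DCN had 3 or fewer counts in every library, and the list summed to 4.85 to 6.41 CPM in control and 4.02 to 4.72 CPM in knockdown. The summed level of the 3 immune markers in the table was 0.665 to 0.863 CPM in control and 0.648 to 0.983 CPM in knockdown. Among 3 endothelial markers PECAM1 had at most 6 counts, VWF fell from 105 to 130 counts to 12 to 22, and CDH5 rose from 331 to 375 counts to 379 to 478. Their sum was 20.7 to 22.1 CPM in control and 19.7 to 22.4 CPM in knockdown.

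Most nuclear receptors bind DNA through copies of the hexamer AGGTCA or a variant of it, alone or as a pair, and many do so as a partner of an RXR protein. The steroid receptors act as pairs of the same protein and are held by chaperones until a ligand arrives, whereas retinoid, thyroid hormone, vitamin D and PPAR receptors sit on DNA with RXR. In breast epithelium the best known pairing is that of FOXA1 with the estrogen receptor.

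Promoter windows, taken as the 250 bases before each RefSeq start on GRCh38.p14, were at hand for 41 of the 46 members, with 96 windows between them. The AGGTCA hexamer on either strand (TGACCT on the other) was in 15 of the 96 member windows (15.6%) and in 12.1% of all 35116 windows. Members with such a window were ESR2, ESRRG, NR0B1, NR1H3, NR1H4, NR2E1, NR5A2, PPARG, RARA, RARB and RXRG. TGTTTAC, the core of the forkhead motif, on either strand (GTAAACA on the other) was in 3 member windows (3.12%), those of ESRRG, NR3C1 and NR5A2, and in 2.98% of all windows. These matches are descriptions of letters, not binding sites. Which of the annotated starts these cells use was not tested. For 4 members with large or opposite changes, 1 window each is shown, with matches to either motif in capitals. The windows shown share no base with the gene's annotated exons, and those with the most motif matches and then the most upstream were taken first. They lie at chr17:40308930-40309179 on the plus strand (RARA, 1 of its 3 windows), chr3:12287118-12287367 on the plus strand (PPARG, 1 of 6), chr5:143435513-143435762 on the minus strand (NR3C1, 1 of 7) and chr5:93582972-93583221 on the plus strand (NR2F1, 1 of 2).
RARA: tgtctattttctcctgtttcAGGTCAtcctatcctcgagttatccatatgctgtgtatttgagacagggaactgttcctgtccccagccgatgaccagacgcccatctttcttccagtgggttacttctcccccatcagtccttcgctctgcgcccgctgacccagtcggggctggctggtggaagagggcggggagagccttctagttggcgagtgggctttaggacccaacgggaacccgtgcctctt
PPARG: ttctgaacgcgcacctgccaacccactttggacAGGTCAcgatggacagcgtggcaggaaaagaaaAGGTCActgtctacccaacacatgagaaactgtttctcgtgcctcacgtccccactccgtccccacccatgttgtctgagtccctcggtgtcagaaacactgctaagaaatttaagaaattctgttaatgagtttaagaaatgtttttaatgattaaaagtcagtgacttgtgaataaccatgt
NR3C1: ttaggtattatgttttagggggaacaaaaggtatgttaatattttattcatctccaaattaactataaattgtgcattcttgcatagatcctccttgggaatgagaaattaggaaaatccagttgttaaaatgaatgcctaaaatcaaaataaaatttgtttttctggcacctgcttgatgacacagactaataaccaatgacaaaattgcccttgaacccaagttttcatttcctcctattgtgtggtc
NR2F1: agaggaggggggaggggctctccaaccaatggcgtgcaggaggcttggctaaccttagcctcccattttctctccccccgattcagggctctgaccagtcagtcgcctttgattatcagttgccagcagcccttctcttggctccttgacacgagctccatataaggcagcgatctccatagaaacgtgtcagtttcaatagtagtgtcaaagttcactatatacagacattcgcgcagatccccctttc
The RARA window holds 1 copy of the hexamer and the PPARG window holds it at 2 places. Since windows with matches were taken first, these matches follow from the choice of windows. Neither motif occurs in the NR3C1 and NR2F1 windows shown, but NR3C1 has the forkhead core in another window that shares bases with its exons. The GC content of the 4 windows was 56.4%, 44.8%, 32.8% and 52.4% in that order, against a median of 58.8% over the member windows.

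With FOXA1 knocked down, the receptors for retinoic acid (RARA, RARG), vitamin D (VDR) and thyroid hormone (THRA) fell 2.11- to 6.41-fold, and the little ESR1 message there was fell to a few reads. The glucocorticoid receptor NR3C1, the lipid sensors PPARA and PPARG, the COUP-TF genes NR2F1 and NR2F2 and the orphan receptor NR4A3 rose by at least 2-fold. The RXR partners, the REV-ERB genes and NR2F6 stayed within 1.2-fold. By edgeR's quasi-likelihood test with Benjamini-Hochberg adjustment over all genes, 26 of the 31 tested members passed an adjusted p of 0.05, 11 lower and 15 higher in knockdown. Of all tested genes 77.1% passed, 37.7% lower and 39.4% higher, so the members' share of 83.9% stands close to that background. Changes of at least 2-fold with that adjusted p were more common among the members, at 14 of 31 (45.2%, 8 lower and 6 higher), than over all tested genes, at 28.3% (13.4% lower and 14.9% higher), a difference that was not tested. The median absolute log2 fold change was 0.76 over the tested members and 0.51 over all tested genes. Control and knockdown libraries had no overlap in CPM for 25 of the 31 (80.6%), and for 72.0% of all tested genes. The filter let through 25 members on their level in every library and 6 (ESR1, ESR2, ESRRG, NR1I3, NR2F1 and NR2F2) with at least 1 library under its minimum, so those of the 6 that passed on 1 group alone had to differ, and the counts are descriptions. All of the 6 except ESR2 are among the 14 members with changes of at least 2-fold, so the filter adds to that share. In bulk RNA, fewer cells with a transcript and less of it per cell cannot be told apart.

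**Figure D1:**
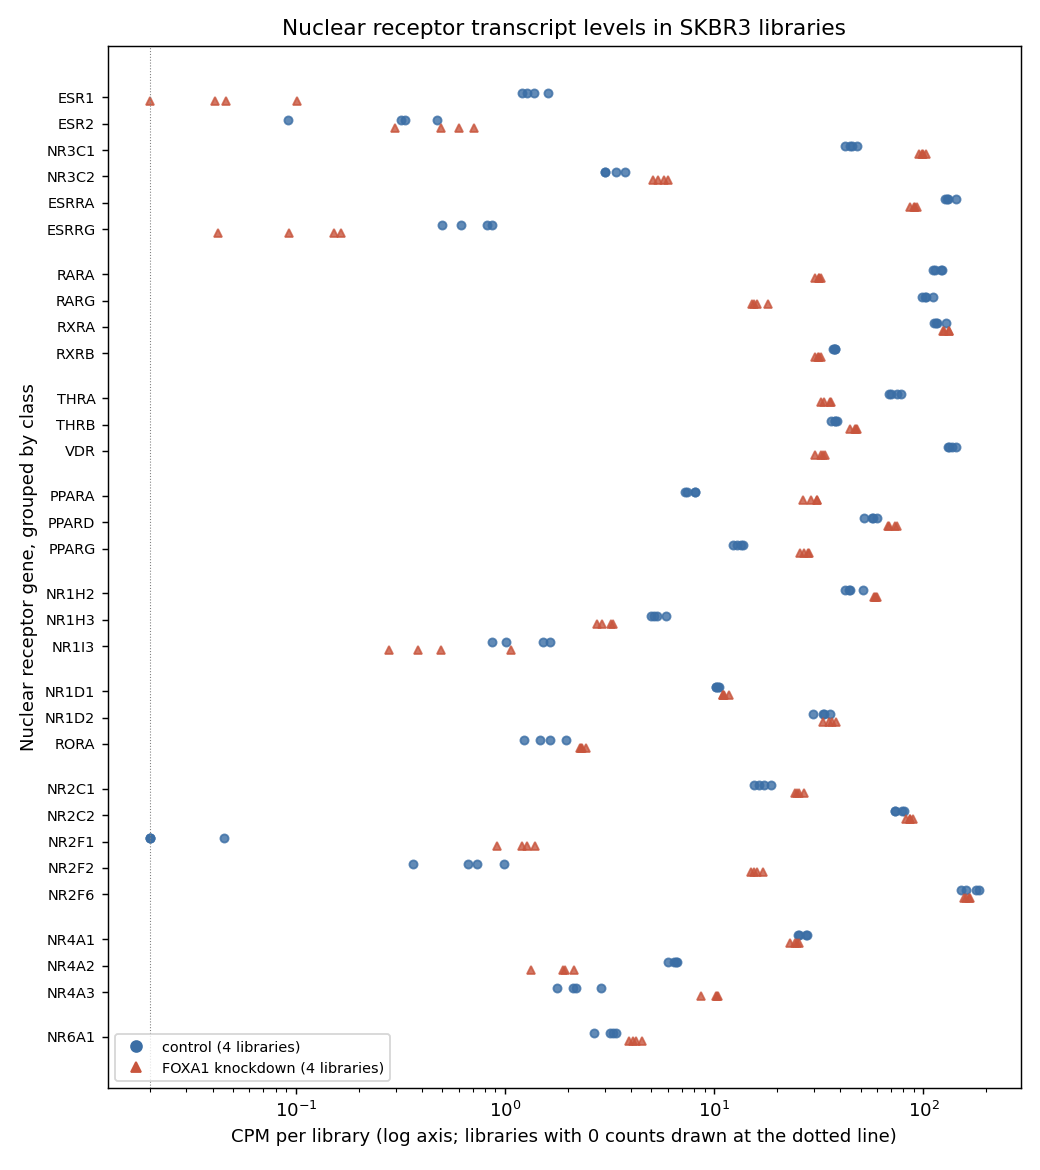
CPM of the 31 tested nuclear receptor genes in each library on a log axis, grouped by class, with circles for the 4 control libraries and triangles for the 4 knockdown libraries, and libraries with 0 counts drawn at the dotted line. The groups are well apart for RARA, RARG, VDR, PPARA, NR2F2 and NR4A3 and overlap for RXRA, NR1D2, NR2F6 and NR4A1.

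Per kilobase of exon, which allows levels of different genes to be set side by side, NR2F6 was the most abundant tested member in control, at 62.8 ± 5.81 CPM per kb (SD, n = 4), followed by ESRRA at 43.7 ± 2.29. RARA (24.8 ± 1.26) and VDR (23.9 ± 0.982) came next and lay within 1 SD of each other, and RARG stood at 20.2 ± 1.04. PPARD (12.7 ± 0.734) and NR1H2 (12.1 ± 1.06) did not differ beyond their spread, nor did RXRA (10.6 ± 0.655) and THRA (10.5 ± 0.649). In knockdown NR2F6 and ESRRA kept the first and second place at 60.4 ± 1.77 and 29.8 ± 1.07 CPM per kb. PPARD (15.9 ± 0.815), NR1H2 (15.7 ± 0.225), RXRA (11.6 ± 0.372) and NR3C1 (10.8 ± 0.353) followed. RARA moved from rank 3 to rank 9 of the 31, VDR from 4 to 12 and RARG from 5 to 18, and NR3C1 moved from rank 13 to rank 6. ESR1 was at rank 27 in control and 31 in knockdown.

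The steroid receptors and their estrogen-related relatives gave 3 falls, 2 rises and 1 gene that did not pass among 6 tested of 8. ESR1, the estrogen receptor alpha gene at chr6:151656691-152129619, had 35, 28, 29 and 28 counts in control and 0, 1, 2 and 1 in knockdown. Its total fell from 120 to 4 counts, a control to knockdown ratio of 30.4 with a 95% counting interval of 11.6 to 113. The fitted log2 fold change was -4.76 (SE 0.544, adjusted p 1.23e-10), on a control level of only 0.0985 CPM per kb. ESR2, the beta receptor, had 2, 7, 7 and 11 counts in control and 7, 12, 14 and 13 in knockdown, groups that overlap, with a log2 fold change of 0.75 (SE 0.529, adjusted p 0.0828). Leaving out 1 library moved it between 0.45 and 1.05, with adjusted p between 0.0339 and 0.278; it passed without control replicate 4 or without knockdown replicate 1 and in no other of these fits. ESR2 shares 523 exon bases on the same strand with AL161756.1, which had a mean of 17.6 counts against 9.12 for ESR2, so its reads cannot be told apart from that gene's with confidence. PGR, the progesterone receptor gene and a classic estrogen target, had at most 1 count per control library and 2 to 4 per knockdown library and was not tested.

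NR3C1 (chr5:143277931-143435512, minus strand), which encodes the glucocorticoid receptor, stood at 45.7, 47.8, 42.2 and 44.5 CPM in control and at 95.3, 99.7, 103 and 98.8 CPM in knockdown. Every knockdown library was about 2-fold or more above every control. The control mean of 45.0 ± 2.35 CPM (SD, n = 4) compares with a knockdown mean of 99.2 ± 3.24 CPM (SD, n = 4), so NR3C1 rose by 1.14 on the log2 scale (SE 0.0444, adjusted p 8.41e-18). NR3C2, the mineralocorticoid receptor gene, had 3.39, 3.00, 2.99 and 3.75 CPM in control and 5.40, 5.08, 5.75 and 6.01 CPM in knockdown, without overlap, and rose by 0.76 on the log2 scale (adjusted p 2.36e-06). Per kilobase the glucocorticoid receptor made up 90.8% ± 1.03 of the summed level of this pair in control and 92.8% ± 0.488 in knockdown, and the sum went from 5.41 ± 0.258 to 11.7 ± 0.373 CPM per kb.

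ESRRA, an estrogen-related receptor that drives mitochondrial genes without a known natural ligand, stood at 130, 127, 143 and 131 CPM in control and 91.4, 85.7, 90.4 and 93.4 CPM in knockdown. All knockdown libraries were lower, with a log2 fold change of -0.55 (SE 0.0453, adjusted p 6.27e-12). Its 50 nearest tested genes had a median log2 fold change of -0.30, and with that regional shift taken out ESRRA's was -0.25 (adjusted p 6.09e-06). Adjusted p-values against a neighbourhood, here and below, take its median as fixed and leave out that median's own error. ESRRA also shares 284 exon bases with TRMT112 on the other strand, a gene of similar count (a mean of 2216 against 2462), and the use of strand in counting is not given in the sources used here. ESRRG fell from 19, 11, 13 and 19 counts to 1, 4, 3 and 2, with no overlap (log2 fold change -2.59, SE 0.400, adjusted p 2.95e-06). Its totals gave a control to knockdown ratio of 6.27 with a counting interval of 3.19 to 13.7. ESRRB had at most 1 count per control library and 1, 7, 7 and 6 counts in knockdown, a knockdown to control ratio of 20.8 with a counting interval of 3.34 to 858, and was not tested.

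Both abundant retinoic acid receptors fell, and their partners hardly moved. RARA (chr17:40309192-40357643, plus strand), the alpha receptor, stood at 121, 114, 123 and 111 CPM in control and at 32.2, 31.8, 30.4 and 31.5 CPM in knockdown. That is a fall from 117 ± 5.94 to 31.5 ± 0.798 CPM, 3.72-fold, with a log2 fold change of -1.89 (SE 0.0410, adjusted p 2.85e-22). RARG (chr12:53210567-53232980, minus strand), the gamma receptor best known from skin, stood at 103, 98.6, 111 and 101 CPM in control and 15.4, 15.9, 15.2 and 18.0 CPM in knockdown. The lowest control library was more than 5-fold above the highest knockdown library. RARG fell 6.41-fold, with a log2 fold change of -2.68 (SE 0.0667, adjusted p 1.14e-23). The neighbourhoods of both genes were lower too: the 50 nearest tested genes had medians of -0.67 around RARA and -0.87 around RARG, and with these shifts taken out the log2 fold changes were -1.23 and -1.81.

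RARB, the beta receptor and itself a retinoic acid target through an element of AGGTCA type, had 6, 6, 8 and 17 counts in control and 6, 5, 5 and 2 in knockdown, and was not tested. Its totals gave a control to knockdown ratio of 2.08 with a counting interval of 1.15 to 3.88. RARB shares 28 exon bases with TOP2B on the other strand, which had a mean of 4196 counts against 6.88, so its value is uncertain. RXRA, the common partner, stood at 116, 112, 128 and 115 CPM in control and 125, 132, 126 and 132 CPM in knockdown. The groups overlapped through control replicate 3, and RXRA rose by 0.13 on the log2 scale (SE 0.0492, adjusted p 0.00883). Without control replicate 2 RXRA did not pass the threshold (adjusted p 0.0614). RXRB went from 36.9, 37.8, 37.4 and 38.0 CPM to 31.4, 30.2, 31.6 and 32.3 CPM, a log2 fold change of -0.26 (adjusted p 1.89e-05), and shares 244 exon bases with SLC39A7 on the other strand, a gene with a mean of 4712 counts against 762 for RXRB.

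The make-up of the retinoic acid receptor class changed with its level. Summed per kilobase, it went from 45.1 ± 2.15 to 9.86 ± 0.308 CPM per kb. RARA's share of that sum was 54.9% ± 0.875 in control and 67.5% ± 1.55 in knockdown, and RARG's was 44.8% ± 0.759 and 31.9% ± 1.76. The RXR sum was 20.2 ± 0.634 in control and 19.6 ± 0.395 CPM per kb in knockdown, with overlapping libraries, so the ratio of the 2 classes was above 1 in every control library and below 1 in every knockdown library.

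Thyroid hormone and vitamin D receptors split in direction. VDR (chr12:47841537-47943048, minus strand), the receptor for active vitamin D, stood at 137, 131, 143 and 132 CPM in control and 32.2, 33.8, 30.5 and 32.9 CPM in knockdown. The fall was 4.19-fold, from 136 ± 5.57 to 32.3 ± 1.41 CPM, with a log2 fold change of -2.07 (SE 0.0432, adjusted p 3.06e-23). Genes around VDR were slightly higher in knockdown (median 0.28), and with that shift taken out VDR's log2 fold change was -2.34. THRA (chr17:40058290-40093867, plus strand) stood at 68.2, 75.0, 77.9 and 69.8 CPM in control and 32.3, 35.8, 33.5 and 36.1 CPM in knockdown, a log2 fold change of -1.08 (SE 0.0592, adjusted p 5.87e-16). THRB, the other thyroid hormone receptor, had 37.6, 38.6, 37.8 and 36.2 CPM in control and 44.4, 47.9, 47.0 and 47.3 CPM in knockdown, also without overlap, and rose by 0.31 on the log2 scale (adjusted p 1.13e-06), or by 0.13 against its neighbourhood (adjusted p 0.0109). Per kilobase THRA thus went from 75.3% ± 0.970 of the class to 53.8% ± 0.747, while the class sum fell from 13.9 ± 0.704 to 9.20 ± 0.395 CPM per kb.

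RARA, THRA and NR1D1 lie on chromosome 17 at 579, 328 and 362 kb past the end of ERBB2, the amplified gene of this line. ERBB2 stood at 6999 to 7752 CPM in control and 1270 to 1396 CPM in knockdown. The 50 tested genes nearest to THRA had a median log2 fold change of -0.56, and with it taken out THRA's was -0.52. Whether the shift of the region had a part in the falls of RARA and THRA was not tested.

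All 3 PPAR genes, which encode sensors of fatty acids and their derivatives, rose. PPARA, known for fatty acid oxidation in liver, stood at 7.28, 8.13, 8.12 and 7.41 CPM in control and 26.7, 31.0, 29.0 and 31.1 CPM in knockdown. Its 3.81-fold rise gave a log2 fold change of 1.93 (SE 0.0667, adjusted p 2e-18). PPARG, the regulator of fat cell differentiation, went from 12.3, 13.8, 12.9 and 13.5 CPM to 28.4, 25.8, 27.0 and 27.9 CPM (log2 fold change 1.06, SE 0.0479, adjusted p 2.41e-14). PPARD, the broadly expressed member, had 57.6, 56.7, 60.0 and 52.2 CPM in control and 67.5, 72.7, 68.1 and 75.0 CPM in knockdown, a smaller rise of 0.32 on the log2 scale (adjusted p 1.32e-06), or 0.12 against its neighbourhood (adjusted p 0.0339). None of the 3 had overlapping groups. Per kilobase the class sum rose from 16.2 ± 0.698 to 24.1 ± 0.913 CPM per kb, PPARD's share of it went from 78.5% ± 1.47 to 65.8% ± 1.08, PPARG's from 17.9% ± 1.37 to 25.0% ± 1.46, and PPARA's from 3.62% ± 0.149 to 9.23% ± 0.431.

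**Figure D2:**
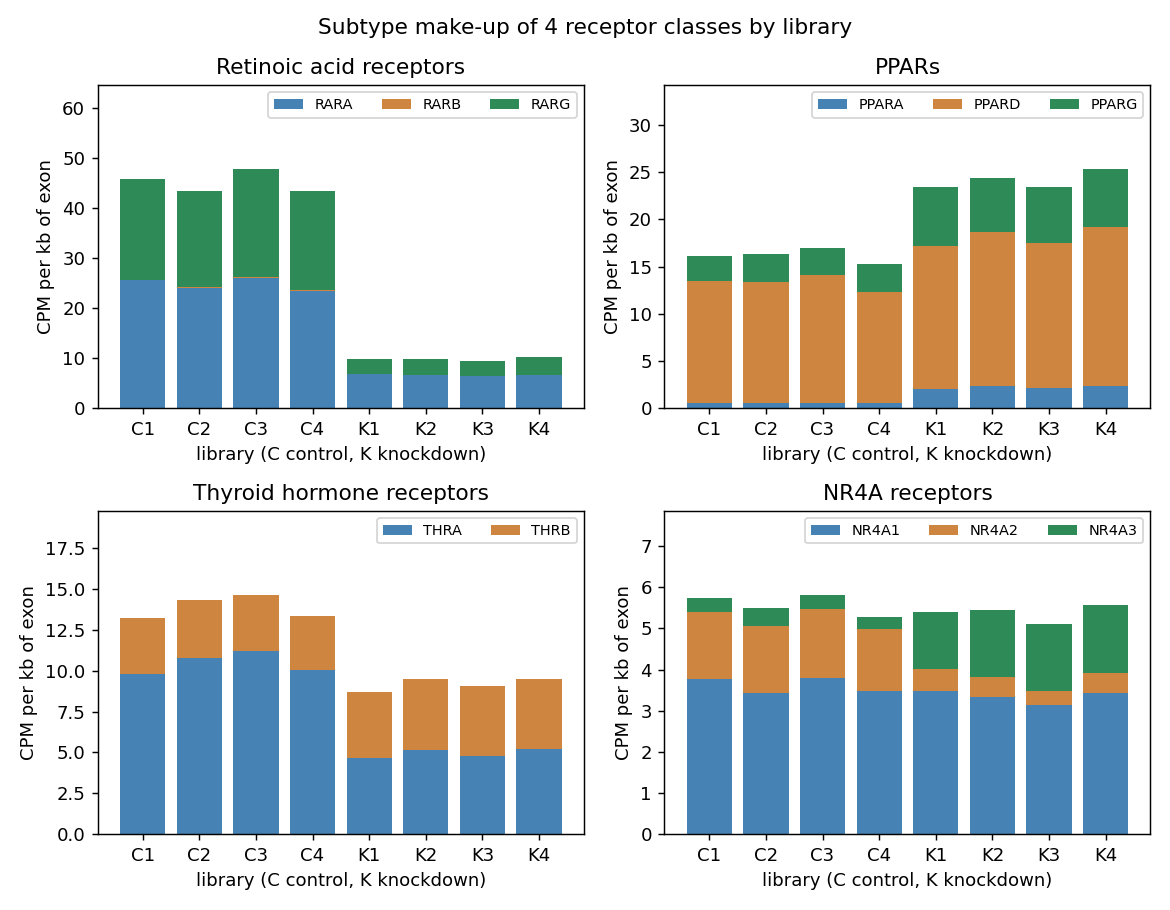
Summed CPM per kilobase of exon of the retinoic acid, PPAR, thyroid hormone and NR4A receptor classes in each control (C1 to C4) and knockdown (K1 to K4) library, with the colours of each bar showing the subtypes. The retinoic acid receptor bars drop from 43.3 to 47.8 in control to 9.45 to 10.2 in knockdown, and the NR4A bars keep their height while NR4A3 takes the place of NR4A2.

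Oxysterol and xenobiotic receptors gave 2 falls and 1 rise among 3 tested. NR1H2 (LXR beta) stood at 44.1, 44.5, 51.1 and 42.0 CPM in control and 59.5, 57.9, 58.6 and 59.7 CPM in knockdown, a rise of 0.38 on the log2 scale (SE 0.0619, adjusted p 3.4e-07). Its neighbourhood had a median of 0.40, and with that taken out the log2 fold change was -0.025 (adjusted p 0.667), so the call and direction rest on the comparison without it. NR1H3 (LXR alpha), the less abundant of the pair, went from 5.13, 4.99, 5.89 and 5.30 CPM to 2.76, 2.91, 3.21 and 3.29 CPM (log2 fold change -0.81, adjusted p 7.69e-07). NR1H3 shares 189 exon bases with ACP2 on the other strand, which had a mean of 1166 counts against 92.4, and with its neighbourhood's median of -0.53 taken out the log2 fold change was -0.28 (adjusted p 0.0313). NR1I3, the constitutive androstane receptor gene, had 22, 36, 32 and 20 counts in control and 9, 12, 21 and 6 in knockdown, with overlap at knockdown replicate 3 (log2 fold change -1.20, SE 0.456, adjusted p 0.00322). Since NR1I3 shares 661 exon bases with TOMM40L (mean 738 counts) on the other strand, its value is uncertain. NR1I2 had at most 1 count in any library.

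REV-ERB and ROR receptors, which repress and activate the same clock elements, differed little between the groups apart from the scarce RORA and RORB. NR1D1 (REV-ERB alpha) stood at 10.5, 10.2, 10.4 and 10.2 CPM in control and 11.0, 11.8, 11.1 and 11.1 CPM in knockdown. The groups did not overlap, but its log2 fold change of 0.12 (SE 0.0247) did not pass (adjusted p 0.128). It passed with upper-quartile scaling (0.18, adjusted p 0.0251), with library sizes alone (0.20, adjusted p 0.0121) and against its lower neighbourhood (0.73, adjusted p 1.29e-09). NR1D1 shares 263 exon bases with THRA on the other strand. NR1D2 had 33.4, 33.0, 29.6 and 35.6 CPM in control and 35.5, 38.0, 36.4 and 32.9 CPM in knockdown (log2 fold change 0.12, adjusted p 0.0613), with overlap. It passed in 6 of the alternative analyses, among them those without control replicate 4 (adjusted p 0.0256) and without knockdown replicate 4 (adjusted p 0.0246). RORA rose from 1.47, 1.95, 1.23 and 1.64 CPM to 2.34, 2.29, 2.44 and 2.31 CPM (log2 fold change 0.57, SE 0.138, adjusted p 0.00377). RORB had 2, 1, 2 and 0 counts in control and 11, 5, 5 and 10 in knockdown, a knockdown to control ratio of 6.13 with a counting interval of 2.36 to 20.2, and was not tested.

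NR2F1 and NR2F2, the COUP-TF genes known from mesenchyme, vessels and neural development, had the highest positive fold changes of the members. NR2F2 (chr15:96325938-96340263, plus strand) had 16, 8, 14 and 23 counts in control and 378, 416, 295 and 334 in knockdown. In CPM the mean went from 0.688 ± 0.258 to 15.9 ± 0.875, a 23.1-fold rise with a log2 fold change of 4.51 (SE 0.294, adjusted p 7.78e-20). NR2F1 (chr5:93583224-93594615, plus strand) had 0, 1, 0 and 0 counts in control and 30, 34, 18 and 26 in knockdown, a ratio of 107 with a counting interval of 18.8 to 4254. Its fitted log2 fold change of 6.16 (SE 0.417, adjusted p 1.06e-10) depends on the prior count, and NR2F1 shares 158 exon bases with NR2F1-AS1 on the other strand (mean 35.4 counts). Of the cell types known for COUP-TF expression, fibroblasts had 3 of their 4 markers in the table at 3 counts or fewer in every library, and COL1A1 fell; endothelial VWF fell and CDH5 rose by 0.32 on the log2 scale, and a part of other cells in the result was not tested. NR2F6, the third gene of the group, had 151, 159, 184 and 178 CPM in control and 166, 160, 156 and 164 CPM in knockdown, inside the control range (log2 fold change -0.06, adjusted p 0.357). The sign of NR2F6 turned with upper-quartile scaling (0.003) and library sizes alone (0.028), and it passed as lower without control replicate 1 (-0.11, adjusted p 0.0485) and against its neighbourhood (-0.28, adjusted p 0.000289). Because NR2F6 is so abundant, the COUP-TF sum per kilobase was 62.9 ± 5.82 in control and 63.1 ± 1.84 in knockdown, with NR2F2's share going from 0.169% ± 0.0597 to 3.90% ± 0.209.

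Among the other relatives of HNF4, the testicular receptors rose modestly. NR2C1 went from 18.6, 16.3, 15.4 and 17.3 CPM to 26.9, 24.4, 25.3 and 25.0 CPM (log2 fold change 0.59, adjusted p 4.5e-09, and 0.35 against its neighbourhood). NR2C2 went from 73.2, 80.6, 72.8 and 78.9 CPM to 82.8, 89.4, 85.8 and 86.1 CPM (log2 fold change 0.17, adjusted p 0.000852) and shares 1197 exon bases with MRPS25 on the other strand. HNF4A and HNF4G, receptors of liver and gut, had at most 1 and 6 counts in any library, and NR2E3, a photoreceptor gene, at most 3. None of these 3 was tested.

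NR4A receptors, which are induced within minutes to hours by many stimuli and need no ligand, went 3 ways. NR4A3 rose from 2.11, 2.86, 2.18 and 1.77 CPM to 8.67, 10.3, 10.2 and 10.5 CPM (log2 fold change 2.15, SE 0.156, adjusted p 2.2e-14). NR4A2 fell from 6.55, 6.40, 6.65 and 5.99 CPM to 2.13, 1.88, 1.32 and 1.94 CPM (log2 fold change -1.80, SE 0.151, adjusted p 3.97e-12). Neither gene had overlapping groups. NR4A1 had 27.4, 25.1, 27.7 and 25.4 CPM in control and 25.4, 24.3, 23.0 and 25.0 CPM in knockdown, with overlap and a log2 fold change of -0.11 (adjusted p 0.0709). Leaving out control replicate 2 or 4 brought NR4A1 to an adjusted p of 0.0464 or 0.0463. Their sum per kilobase overlapped between groups (5.59 ± 0.250 and 5.38 ± 0.198), while NR4A2's share went from 28.9% ± 0.290 to 8.50% ± 1.42 and NR4A3's from 6.32% ± 1.30 to 29.2% ± 2.68.

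The remaining orphan receptors were scarce. NR6A1, the germ cell nuclear factor gene, had 3.39, 3.18, 2.66 and 3.28 CPM in control and 4.51, 4.10, 3.92 and 4.21 CPM in knockdown, without overlap, a rise of 0.42 on the log2 scale (SE 0.0876, adjusted p 0.00327). NR5A2, the liver receptor homolog gene, had 2 counts in 1 knockdown library and 0 in the other libraries. NR0B2, a receptor without a DNA-binding domain, had at most 1 count.

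**Figure D3:**
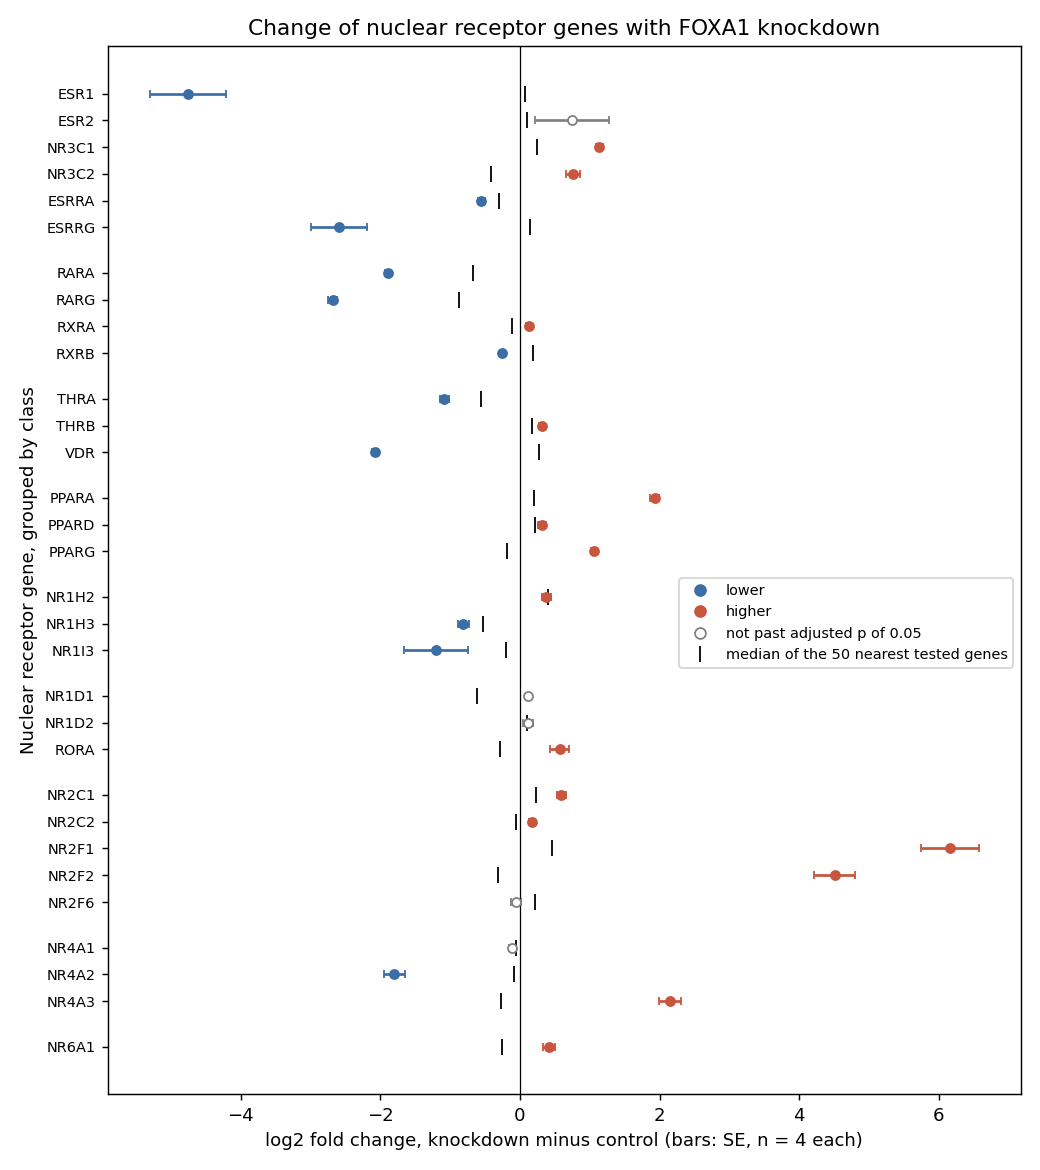
Fitted log2 fold change, knockdown minus control, of the 31 tested nuclear receptor genes with SE bars (n = 4 each), and a tick at the median of the 50 nearest tested genes. RARG, RARA and VDR lie beyond -1.8, NR2F1 and NR2F2 beyond 4, and NR1H2 falls on its own tick.

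Receptors act through coregulators and chaperones, which were followed as lists whose counts stand beside the 37.7% lower and 39.4% higher of all tested genes, with no test of a list against them. Of 15 tested coactivators of 16, 3 fell, 9 rose and 3 did not pass, with a median log2 fold change of 0.33 against 0.02 for all tested genes; with regional shifts taken out the list's median was 0.15. PRMT1, an arginine methyltransferase, rose from 117 ± 6.57 to 264 ± 6.61 CPM (1.17, adjusted p 2.85e-19), and NCOA2, a p160 coactivator, from 31.0 ± 0.861 to 63.0 ± 2.90 CPM (1.02, adjusted p 3.24e-16). NCOA3, the p160 gene often amplified in breast cancer, fell from 229 ± 8.15 to 176 ± 7.31 CPM (-0.38, adjusted p 9.46e-10), and NCOA6 fell by 0.40 on the log2 scale (adjusted p 9.3e-11). Against their neighbourhoods these were -0.11 for NCOA3 and -0.19 for NCOA6, both past the threshold when the neighbourhood medians are taken as fixed. Of 10 corepressors 2 fell, 7 rose and 1 did not pass, with a median of 0.21. TBL1X, a subunit of the NCOR complex, rose from 15.5 ± 2.20 to 63.8 ± 0.996 CPM (2.05, adjusted p 4.01e-17, and 1.38 against its neighbourhood), whereas its relative TBL1XR1 fell by 0.35 (adjusted p 7.54e-08). NRIP1 rose by 0.74 (adjusted p 5.88e-13). NCOR1's fall of 0.14 on the log2 scale (adjusted p 0.00445) was lost with upper-quartile scaling (adjusted p 0.0925) and library sizes alone (adjusted p 0.247). Of 6 genes listed as receptor chaperones 4 rose and 2 did not pass, with a median of 0.30. The largest rises in this list were those of HSPA4 (1.37, adjusted p 2.08e-21, and 0.30 against its neighbourhood) and HSP90AB1 (0.61, adjusted p 1.34e-15).

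Genes that make, carry, break down or answer to retinoids were both strongly down and strongly up: of 12 tested of 15, 5 fell and 7 rose, and every one passed. CRABP2, which carries retinoic acid to its receptors, had 5582, 5770, 5913 and 5768 counts in control and 26, 27, 25 and 24 in knockdown, a 228-fold fall in CPM (-7.83, adjusted p 6.87e-31). ALDH1A3, which makes retinoic acid, stood at 117, 118, 115 and 113 CPM in control and 7.35, 8.36, 6.98 and 8.42 CPM in knockdown (-3.89, adjusted p 7.25e-27), and shares 1585 exon bases with an antisense gene of lower count. CYP26B1, which breaks retinoic acid down, had 3, 1, 1 and 0 counts in control and 299, 291, 222 and 253 in knockdown, a ratio of 210 with a counting interval of 89.9 to 650 (adjusted p 1.94e-20). STRA6, the retinol uptake receptor, rose from 6.18, 5.77, 5.27 and 4.22 CPM to 99.8, 99.2, 94.2 and 98.0 CPM (4.19, adjusted p 1.09e-25). The list's median of 2.52 rests on scarce genes: among the 7 with a mean of at least 50 counts the median was -0.91.

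Vitamin D and thyroid hormone genes were followed beside VDR and THRA. Of 3 tested of 7 vitamin D genes 2 fell and 1 rose (median -1.81, and -0.96 with no filter on low counts). TRPV6, a calcium channel and vitamin D target, went from 56.6, 55.8, 61.4 and 58.3 CPM to 8.37, 9.26, 9.17 and 8.70 CPM (-2.71, adjusted p 1.9e-23), and CYP2R1, a vitamin D 25-hydroxylase, fell by 1.81 (adjusted p 2.56e-15). CYP27B1, which makes active vitamin D and is named here after its values were seen, rose from 7, 15, 13 and 5 counts to 35, 34, 31 and 28 (1.65, adjusted p 7.82e-06), and shares 107 exon bases with METTL1 on the same strand, a gene of higher count. The other 3 vitamin D genes in the table had too few counts to be tested. Of these CYP24A1, also named after its values were seen, had 19, 7, 7 and 12 counts in control and 1, 3, 3 and 4 in knockdown. Its totals gave a control to knockdown ratio of 4.14 with a counting interval of 2.11 to 8.88. Of 6 tested of 7 thyroid hormone genes 5 fell and 1 did not pass (median -2.46). THRSP, a lipogenic thyroid hormone target, had 128, 110, 136 and 107 counts in control libraries and no count in the 4 knockdown libraries. Against a floor of 3 counts per library it was at least 35.9-fold lower. HR, a corepressor gene induced by thyroid hormone, fell from 46.0, 46.6, 51.6 and 45.7 CPM to 1.87, 2.09, 2.44 and 2.13 CPM (-4.48, adjusted p 6.97e-25).

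Glucocorticoid response genes were followed beside the rise of NR3C1: of 9 tested of 10, 5 fell, 2 rose and 2 did not pass. Their median was -0.14, and -0.48 with regional shifts taken out or -0.06 with library sizes alone. TSC22D3 (GILZ), one of the best known targets, stood at 113, 113, 116 and 105 CPM in control and 0.468, 0.328, 0.458 and 0.139 CPM in knockdown (-8.30, adjusted p 3.92e-28), and MT2A fell by 1.96 on the log2 scale (adjusted p 4.58e-16). SGK1 rose from 0.824, 0.454, 1.14 and 0.560 CPM to 6.21, 6.96, 5.96 and 6.89 CPM (3.13, adjusted p 2.2e-14), and ERRFI1 rose by 0.77 (adjusted p 1.86e-14). Of 9 tested of 12 estrogen response genes 7 fell and 2 rose (median -1.26). CA12 and AGR2 fell (-9.74, adjusted p 2.8e-32, and -5.49, adjusted p 6.14e-23), while GREB1 rose from 2.34 ± 0.0445 to 6.38 ± 0.572 CPM (1.45, adjusted p 3.17e-11) and SIAH2 by 1.06 (adjusted p 2.17e-15).

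PPAR targets were followed beside the 3 PPAR rises: of 7 tested of 10, 5 fell, 1 rose and 1 did not pass (median -0.36). HADHA, of fatty acid oxidation, fell from 304 ± 5.41 to 184 ± 7.37 CPM (-0.73, adjusted p 6.35e-16). ACADM fell by 0.43 (adjusted p 0.00379), a call lost against its neighbourhood (-0.18, adjusted p 0.136). PLIN2, a lipid droplet coat gene, rose from 14.6 ± 0.965 to 26.9 ± 0.620 CPM (0.88, adjusted p 7.47e-13). Of 7 LXR targets 3 fell and 4 rose (median 0.58, and 0.24 among those with a mean of at least 50 counts). The lipogenic pair SREBF1 (-1.23, adjusted p 2.57e-15) and LPCAT3 (-1.08, adjusted p 3.6e-18) fell, and the cholesterol exporter ABCA1 (1.58, adjusted p 2.93e-10) and the LDL receptor ligase MYLIP (0.97, adjusted p 1.35e-16) rose. LPCAT3 shares 3100 exon bases with EMG1 on the other strand. Shorter overlaps, with unknown use of strand, touch STRA6 (CCDC33, 540 bases), SREBF1 (RAI1, 556), JUNB (HOOK2, 259), BHLHE41 (SSPN, 162), THRSP (NDUFC2, 48) and, on the same strand, ACADM (RABGGTB, 157) and NCOA6 (PIGU, 96).

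Clock genes were evenly split, with 6 falls, 6 rises and 1 gene that did not pass among 13 tested of 14 (median 0.02), beside REV-ERB genes that did not pass. PER3 had 2, 9, 5 and 6 counts in control and 626, 671, 517 and 613 in knockdown, a ratio of 109 with a counting interval of 71.8 to 174 (adjusted p 1.25e-23). BHLHE41 rose (3.30, adjusted p 1.79e-15), while BHLHE40 (-1.69, adjusted p 1.48e-17) and ARNTL (-1.19, adjusted p 5.14e-08) fell. Immediate early genes, induced by the same kinds of stimuli as the NR4A genes, gave 3 falls, 2 rises and 1 that did not pass among 6 tested of 8 (median -0.22, and 0.02 with no filter on low counts). FOS rose from 2.52, 1.73, 0.997 and 2.80 CPM to 27.0, 23.6, 24.0 and 29.8 CPM (3.68, adjusted p 3.95e-07), and JUNB fell from 72.2 ± 2.47 to 17.4 ± 0.699 CPM (-2.05, adjusted p 3.4e-22). IER2 fell by 0.36 (adjusted p 6.73e-09). ATF3's rise of 0.17 (adjusted p 0.0244) was lost in 7 alternatives: with DESeq2, at the stricter threshold, against its neighbourhood, and without control replicate 1 (adjusted p 0.072), control replicate 4 (0.115), knockdown replicate 3 (0.059) or knockdown replicate 4 (0.0653).

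**Figure D4:**
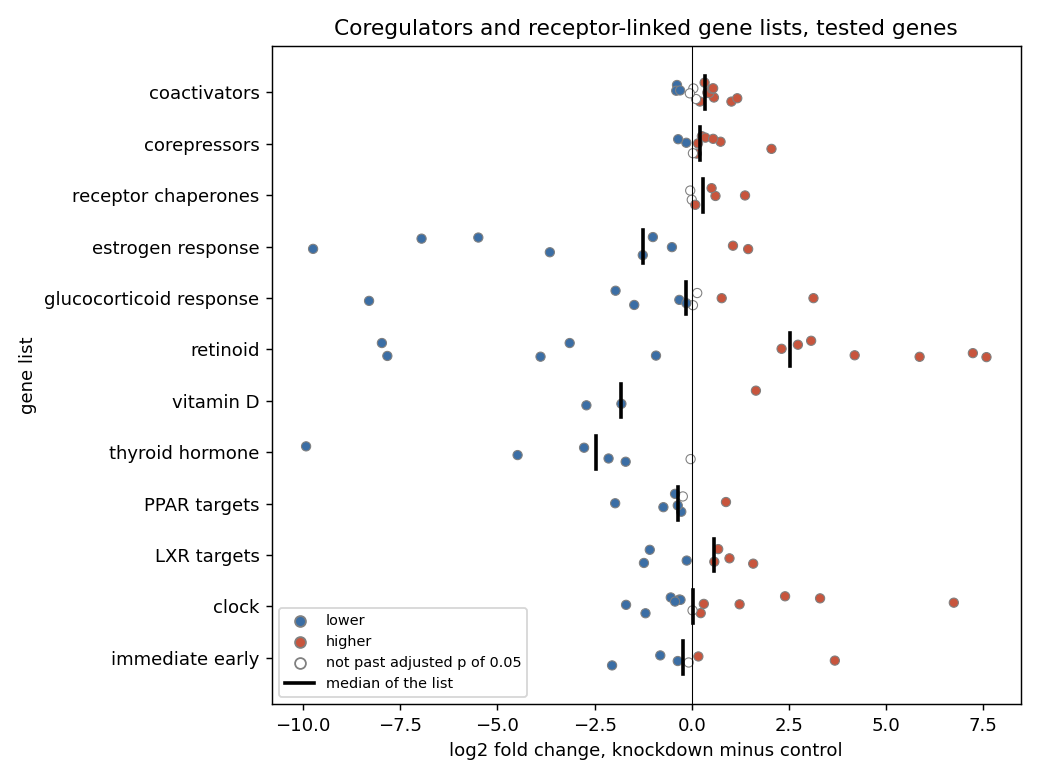
Fitted log2 fold change, knockdown minus control, of each tested gene in 12 lists of coregulators, chaperones and receptor-linked genes, filled where the adjusted p is under 0.05, with a bar at each list's median. The retinoid genes split into a group beyond -0.9 and a group above 2.3, and no thyroid hormone gene lies above 0.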

How the data were processed

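RNA of 4 control and 4 FOXA1 knockdown SKBR3 libraries was sequenced as paired-end reads, per the labels' protocols. The authors deposited 1 table of whole-number counts per gene; the submitters' processing notes name FastQC, Salmon 1.9, DESeq2 and hg38 without roles, so the counts may be rounded Salmon estimates. The annotation and the use of strand are not given in the sources used here. Without strand, reads of overlapping genes on opposite strands mix, and such overlaps are stated for some genes only. Among those left out above are NR2C2 with FGD5-AS1 (155 bases, mean 2178 counts against 1801). Others are RARA, NR4A1 and RORA with antisense genes of lower count. Groups came from the sample titles.

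Counts were filtered with filterByExpr (minimum 10), scaled by TMM and tested with edgeR 4.0.16 (limma 3.58.1, R 4.3.3), glmQLFit with robust estimation and glmQLFTest, with adjustment over all 16430 genes passing the filter and a threshold of 0.05. CPM values use library sizes summed over the genes passing the filter and scaled by TMM. Totals over all genes in the deposited table were 19087878 to 23786684 counts. Each SE was computed from the replicates' log2 CPM, after adding 0.5 to the counts. Ratios of summed counts have exact 95% intervals that cover counting error only. Exon lengths, positions and overlaps are from GENCODE 29 (GRCh38), matched by Ensembl identifier, and the build behind the counts may differ. Promoter windows are from RefSeq (GRCh38.p14); those printed share no base with the gene's annotated exons, with the most motif matches and then the most upstream taken first. Python 3.11.15 and matplotlib 3.10.9 were used for windows and figures.

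The members and lists were chosen with earlier results of these data known. Every member is accounted for; from each list the up to 2 largest falls and 2 largest rises among genes with an adjusted p under 0.05 and a mean of at least 50 counts are named. CYP24A1 and CYP27B1, which that rule does not cover, were added after their values were seen. The code was checked on simulated counts with known changes. As alternatives, scaling by RLE, by upper quartiles or by library size was tried, then other count filters. DESeq2 1.42.0, limma voom, no robust estimation, a replicate block and a threshold of 0.01 were also tried. So were leaving out each library and removal of the regional shift (the median change of a gene's 50 nearest tested neighbours). That median entered the fit as a fixed value, so adjusted p-values against a neighbourhood leave out its error.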

Additional observations from a re-analysis of the deposited data

Results flagged for a closer look

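In groups of 4 libraries, 8 of 148 groups had a library whose gap to its nearest neighbour exceeded Dixon's 95% critical value, where chance alone gives about 7.4. Receptors account for 3 of these: NR1D1 in knockdown replicate 2 stood at 11.757 CPM against 11.0 to 11.1 in the other knockdown libraries, NR4A3 in knockdown replicate 1 at 8.6709 CPM against 10.2 to 10.5, and NR2F1 in control replicate 2 at 0.045396 CPM, which is 1 count, against 0. The rest are list genes. HSP90AB1 stood at 1478.1 CPM in control replicate 2 against 1444 to 1446, and MYLIP in the same library at 39.949 CPM against 37.3 to 37.5. HR stood at 51.618 CPM in control replicate 3 against 45.7 to 46.6, and ACADM in the same library at 84.906 CPM against 109 to 113. CRABP2 stood at 1.2732 CPM in knockdown replicate 3, or 25 counts, against 1.11 in the others.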

How the results depend on the processing

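Across 19 alternatives, 24 of the 26 called receptor genes kept their direction and side of the threshold in each that was run. RXRA did not pass without control replicate 2, and NR1H2 turned to -0.025 with the regional shift removed. NR2F6, not called, turned to 0.003 with upper-quartile scaling and 0.028 with library sizes alone. These 2 scalings raised the median of all genes by 0.059 and 0.084 on the log2 scale. Alternatives were run 94 times in all on the 5 genes not called, which passed in 15 of these 94 runs. The count of called receptors was 22 of 25 tested with a mean of at least 50 counts and 31 of 41 without a filter; leaving out 1 library gave 26 to 29 (11 to 12 lower, 14 to 17 higher). In the retinoid list the stricter filter left 7 genes, all called, in place of 12, through fewer genes tested. Of 41 list genes named by the stated rule, 38 kept their call throughout. The exceptions were NCOR1, ACADM and ATF3. Same-numbered libraries did not deviate together (correlations of -0.03 to 0.06, against -0.04 to 0.05 for other pairs), not every library matched its own number best, and with the replicate block 26 receptors were called, 11 lower and 15 higher. Leaving out 1 library moved list counts by at most 1 gene: 3 to 4 for chaperones, 4 to 5 for immediate early genes, 6 to 7 for PPAR and for LXR targets, 7 to 8 for glucocorticoid, 8 to 9 for estrogen response, 11 to 12 for clock genes and 12 to 13 for coactivators. With the replicate block 8 estrogen response genes were called in place of 9. FOXA1's log2 fold change ranged from -5.64 to -5.45. Depth limits the scarce members: ESR1, ESRRB, ESRRG, NR2F1, RARB and RORB carry wide counting intervals, with those of NR2F1 and ESRRB the widest of these.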
